A study of Mus musculus with 6 samples.

Results

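Genes of the heat-shock response and the unfolded-protein response were followed through locus coeruleus tissue of wild-type and 5xFAD mice. The 40 genes were listed by function, with earlier results of these data known. They were cytosolic and mitochondrial chaperones, chaperones and folding enzymes of the endoplasmic reticulum (ER), and the factors that control them. All 40 were found among the 56923 genes of the deposited table. They took up 41 rows, because Ddit3 is listed under a pair of identifiers, and the row ENSMUSG00000116429 was at 0 in all 6 libraries. The study sequenced poly-A RNA from punches of the locus coeruleus, a small nucleus of the pons and the main source of noradrenaline for the forebrain, and its title links tau phosphorylation in this nucleus to early sleep loss. There were 3 libraries of wild-type mice (WT 62, 63 and 66) and 3 of 5xFAD transgenic mice (5xFAD 64, 65 and 79). The 5xFAD line is a model of amyloid disease whose transgenes are driven by the neuronal Thy1 cassette. The labels name no treatment, and all mice were anaesthetised with isoflurane before the brain was sliced in cold buffer and punched. Age, sex and litter, and whether each number is a separate animal, are not stated in the labels. The p-values therefore measure the spread between these libraries, which may be technical in part.

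Chaperones of the HSP70 and HSP90 families, with J-protein and BAG cochaperones and small heat-shock proteins, fold newly made proteins and hold unfolded ones in the cytosol. Heat-shock factor 1 (Hsf1) raises their transcription when unfolded protein builds up. In the ER the chaperone BiP (Hspa5) serves the same purpose, and the sensors IRE1 (Ern1), PERK (Eif2ak3) and ATF6 (Atf6) switch on ER chaperones, ER-associated degradation and the transcription factors Xbp1, Atf4 and Ddit3. Noradrenergic neurons of this nucleus fire steadily while the animal is awake, and misfolded protein is a feature of Alzheimer's disease.

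The libraries held 15158712 to 20079349 reads assigned to genes. All 40 genes passed the filter on low values, which asks 3 or more of the 6 libraries to reach a normalized count of 10, as did 16411 genes in all. A normalized count is a gene's read count divided by the size factor of its library. Defining markers of the nucleus were present in every library, with Dbh at 1281 to 2895 and Th at 434 to 1100 normalized counts (both enzymes of noradrenaline synthesis). Thy1, whose regulatory sequence drives the transgenes, had a log2 fold change of 1.23 (limma adjusted p = 0.0456) and was the one gene past the threshold. Its log2 fold change stayed between 1.16 and 1.36 in the settings tried. Its adjusted p was 0.0339 in edgeR, 4.39e-29 in DESeq2 and 0.0256 in limma with quantile normalization. Its adjusted limma p was 0.532 without trend or robust moderation and 0.526 without the filter. In limma it was 2.24e-05 without 5xFAD 65, but 0.145 to 0.397 when any other 1 library was left out. Without both WT 62 and 5xFAD 79 its adjusted limma p was 0.942. A pair of libraries stood apart in the genes described here, 1 of each genotype. WT 62 was the highest WT library in 33 of the 40 genes and 5xFAD 79 the highest 5xFAD library in 36. The genotype comparison is given for all 40 genes together without these libraries, and gene by gene where that moved a value most.

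No transcript of the heat-shock and unfolded-protein response passed the test between the genotypes. Of the 40 genes, 0 passed in the limma test (log2 values, Benjamini-Hochberg adjustment over all 16411 tested genes at 0.05), where 0.00609% of all tested genes passed. At an unadjusted p under 0.05 there were 0 of the 40, against 2.32% of all tested genes, and edgeR and DESeq2 on recovered reads also called 0 of the 40. The log2 fold change, taken as 5xFAD minus WT in log2(normalized count + 1), was above 0 for 17 genes and below 0 for 23. Its median was −0.0086, beside 0.00053 over all tested genes, and turned to 0.0055 with quantile normalization. Values ran from −0.39 for Atf3 to 0.25 for Sdf2l1. For 30 of the 40 genes a 1.5-fold difference either way lay outside the 95% interval, as it did for 71.4% of all tested genes. The 10 genes without that bound were Hspa1a, Hspa1b, Hspb1, Cryab, Hspa5, Pdia4, Sdf2l1, Creld2, Xbp1 and Atf3. The authors' deposited DESeq2 comparison gave 0 of the 40 an adjusted p under 0.05, beside only 3 of the 28317 genes with a p-value. Its smallest unadjusted p among the 40 was 0.103, for Bag3.

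**Figure D1:**
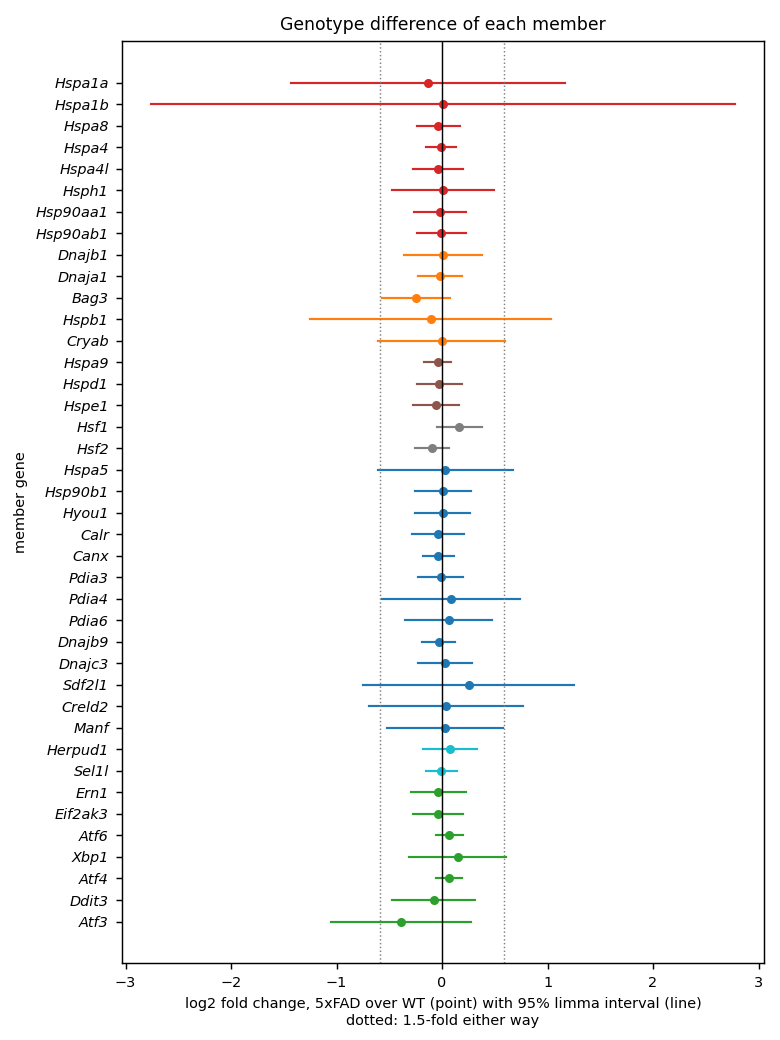
Log2 fold change of each of the 40 genes, 5xFAD over WT (points), with its 95% limma interval (lines), coloured by functional group, with dotted lines at 1.5-fold in either direction. Every interval covers 0, and the widest belong to Hspa1b, Hspa1a and Hspb1.

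The split of the signs rested on single libraries. The number of genes above 0 went from 17 to 33 without WT 62 and to 31 without 5xFAD 65. It fell to 4 without WT 63, 11 without WT 66 and 5 without 5xFAD 79. Without 5xFAD 64 the sign turned for 8 of the 40 genes, the fewest for any single library left out. The groups of 3 did not overlap for 2 of the 40 genes, Hsf2 and Atf6, beside 7.42% of all tested genes. With 1 library left out, when fewer values have to stay apart, that count was 9 without WT 62 (14.0% of all tested genes) and 6 without WT 63 (23.8%). It was 3 without WT 66 (14.8%), 3 without 5xFAD 64 (13.9%), 2 without 5xFAD 65 (17.5%) and 7 without 5xFAD 79 (19.0%). As shares of the 40 genes, 22.5% without WT 62 was above the share of all tested genes, and the other 5 settings lay below it. The limma test, adjusted over every tested gene, called 0 of the 40 whichever single library was left out. Without both WT 62 and 5xFAD 79, a setting chosen after seeing the data, 0 of the 40 passed (0.00% of all tested genes) and 20 were above 0. At an unadjusted p under 0.05 there were 2 of the 40, Bag3 and Xbp1, and 2.08% of all tested genes. The remaining pairs of libraries then did not overlap for 15 of the 40, where 27.3% of all tested genes did not overlap. Of these 15, 9 had higher and 6 lower values in 5xFAD. The log2 fold change of 7 genes moved by more than 0.1 when both libraries were left out. They were Hspa1a (−0.14 to −0.011), Hspb1 (−0.11 to −0.24), Creld2 (0.038 to 0.15) and 4 regulators. Of the regulators, Ern1 went from −0.035 to −0.17, Eif2ak3 from −0.04 to −0.16, Ddit3 from −0.081 to −0.21 and Atf3 from −0.39 to −0.19.

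Libraries of the same genotype differed from each other in most of these genes. In 33 of the 40 genes, WT 62 was the highest WT library and 5xFAD 79 the highest 5xFAD library, a pattern noticed in the data and found in 13.7% of all tested genes. The median over the 40 genes was 0.29 on the log2 scale for WT 62 over the other WT libraries, and 0.25 for 5xFAD 79 over the other 5xFAD libraries. The same medians over all tested genes were 0.0041 and 0.0044. All 31 chaperones, folding enzymes and degradation factors had this pattern, but only 2 of the 9 regulators did, Xbp1 and Ddit3. The 7 genes without it were Hsf1, Hsf2, Ern1, Eif2ak3, Atf6, Atf4 and Atf3. WT 63 was the lowest of all 6 libraries in 17 genes and 5xFAD 65 in 10. The median SD within groups on the log2 scale was 0.175 for the 40 genes and 0.138 over all tested genes.

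**Figure D2:**
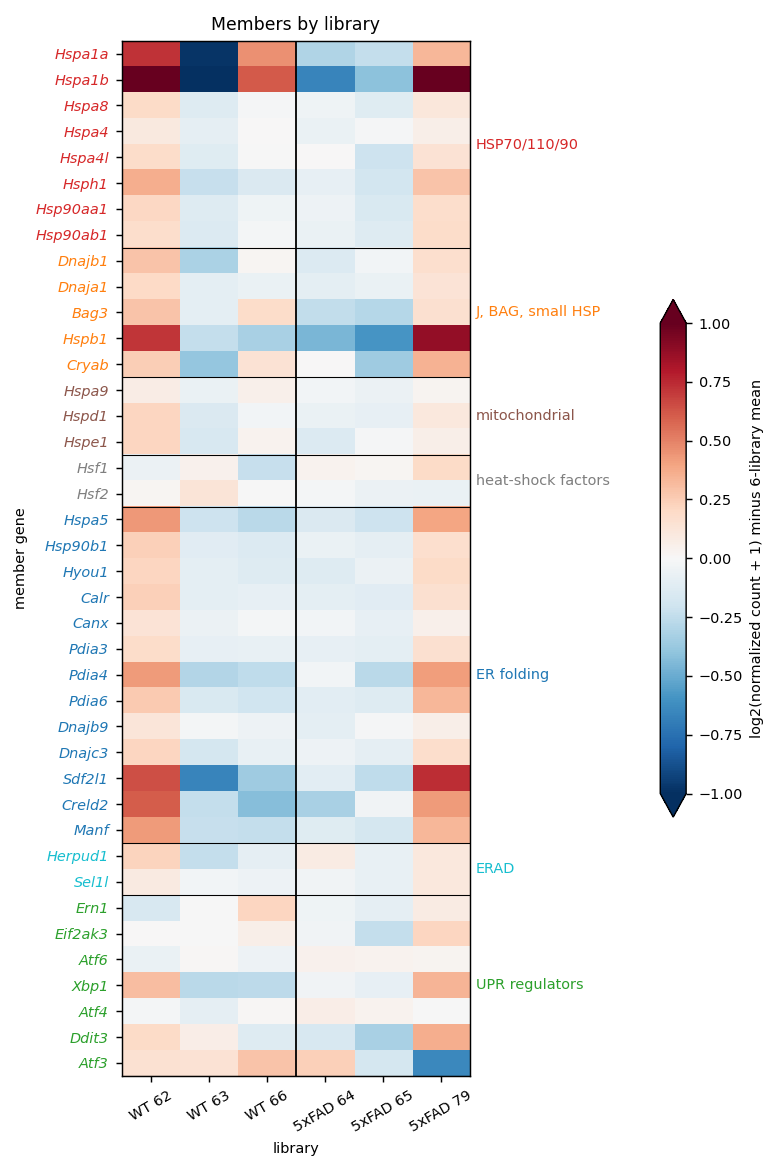
Log2(normalized count + 1) of each gene in each library minus its mean over the 6 libraries, with genes grouped by function and colours cut at 1 in either direction. The columns of WT 62 and 5xFAD 79 are red for the chaperones of cytosol, mitochondria and ER. The regulators Hsf1, Hsf2, Atf6 and Atf4 are not red in both columns.

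Among cytosolic HSP70 proteins, the stress-inducible pair Hspa1a and Hspa1b varied most. Hspa1a (ENSMUSG00000091971.4) read 643, 197 and 536 in the WT libraries against 315, 329.7 and 491 in the 5xFAD libraries, in the order WT 62, 63 and 66 and 5xFAD 64, 65 and 79 used throughout. Hspa1b (ENSMUSG00000090877.4) read 876, 110.1 and 591 in the WT libraries against 244, 291 and 819.8 in the 5xFAD libraries. In both genes WT 62, WT 66 and 5xFAD 79 were high and WT 63 was the lowest, so the genotypes overlapped widely. The group values were 459 ± 233 in WT and 379 ± 97.4 in 5xFAD for Hspa1a, and 526 ± 387 and 452 ± 319.8 for Hspa1b (SD, n = 3 each). The log2 fold change was −0.14 (SE 0.51, 95% confidence interval from −1.44 to 1.16) for Hspa1a and 0.0086 (SE 1.03, 95% confidence interval from −2.76 to 2.78) for Hspa1b. Leaving out 1 library moved the value of Hspa1a from −0.66 without WT 63 (unadjusted limma p of 0.0173, adjusted p of 0.813) to 0.19 without WT 62.

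The pair lies side by side in the genome and encodes nearly the same protein. In GENCODE M21, 47.1% of the 100-base stretches of the longest Hspa1a transcript also occur in Hspa1b, so the authors' counting could split reads between them and their ratio is uncertain. Hspa1b over Hspa1a ran from 0.559 in WT 63 to 1.67 in 5xFAD 79. The sum of the pair read 1519, 307 and 1127 in the WT libraries against 559, 621 and 1311 in the 5xFAD libraries. No difference between the genotypes was detected in this sum (two-sided exact permutation test, p = 0.9, with 0.1 the smallest p that 3 against 3 can give).

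The constitutive HSP70, Hspa8, which carries most of the folding work of unstressed cells, read 51046, 40786 and 44307 in the WT libraries against 43262, 41106 and 48211 in the 5xFAD libraries. It spanned only 1.25-fold between its lowest and highest library, against 7.95-fold for Hspa1b. The stress-inducible HSP90, Hsp90aa1, read 43284, 34222 and 36269.5 in the WT libraries against 36074, 33713 and 42215 in the 5xFAD libraries. Its constitutive partner Hsp90ab1 read 34655, 27887 and 30245 in the WT libraries against 29337, 28132 and 34886 in the 5xFAD libraries. In all 3 genes WT 62 and 5xFAD 79 were above the other 4 libraries, and the log2 fold changes between genotypes were −0.035 (SE 0.091), −0.022 (SE 0.11) and −0.0073 (SE 0.10).

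The HSP110 proteins, which release nucleotide from HSP70, were also highest in WT 62 and 5xFAD 79. Hspa4l read 10919, 8851 and 9619 in the WT libraries against 9661, 8355 and 10655 in the 5xFAD libraries, with a log2 difference between genotypes of −0.037 (SE 0.10). Hsph1 ranged over 6513 to 9878 and was 1.47-fold in WT 62 and 1.34-fold in 5xFAD 79 above the other 2 libraries of its genotype, while Hspa4 stayed within 5274 to 5994. Their log2 fold changes between genotypes were 0.0074 (SE 0.20) and −0.01 (SE 0.062).

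**Figure D3:**
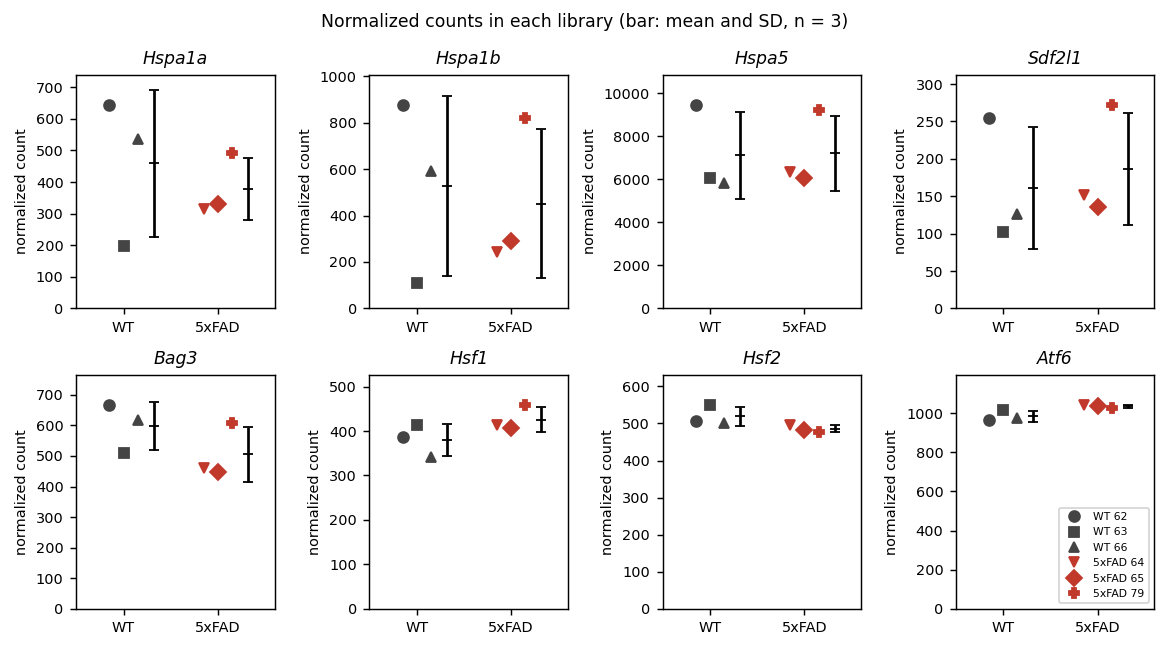
Normalized counts of 8 genes in each library (points, shaped by library, grey for WT and red for 5xFAD) with the mean and SD of each genotype (bars, n = 3), on axes that start at 0. WT 62 and 5xFAD 79 are far above the others in Hspa5 and Sdf2l1, whereas Hsf1, Hsf2 and Atf6 span the least of these 8 genes.

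Of the J proteins, which deliver substrates to HSP70, Dnajb1 ranged over 1057 to 1605 and Dnaja1 over 7177 to 8833, with log2 fold changes of 0.0072 (SE 0.16) and −0.021 (SE 0.093). Bag3, an HSP70 cochaperone that routes misfolded protein to autophagy, had the smallest p of the 40 genes. It read 666, 511 and 619 in the WT libraries against 459.9, 447 and 609 in the 5xFAD libraries, or 598 ± 79.4 and 505 ± 89.9 (SD, n = 3 each). 5xFAD 64 and 65 lay below all WT libraries, but 5xFAD 79 lay among them. The log2 fold change of Bag3 was −0.25 (SE 0.14, 95% confidence interval from −0.57 to 0.071) at an unadjusted limma p of 0.111 (adjusted p = 0.9995). It was −0.36 without WT 63, at an unadjusted limma p of 0.0275, and −0.39 without 5xFAD 79, at an unadjusted limma p of 0.00854. Without both 5xFAD 79 and WT 62 it was −0.31, at an unadjusted limma p of 0.035 and an adjusted p of 0.9999.

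The small heat-shock proteins, which hold unfolded proteins without using ATP, differed strongly between libraries. Hspb1 read 194, 99.8 and 93.9 in the WT libraries against 85.5, 78.0 and 217 in the 5xFAD libraries. It was 1.99-fold in WT 62 and 2.64-fold in 5xFAD 79 above the other 2 libraries of the genotype, and its log2 fold change between genotypes was −0.11 (SE 0.47, 95% confidence interval from −1.25 to 1.04). Cryab, the alpha-B crystallin, which oligodendrocytes also express, read 3647, 2355 and 3412 in the WT libraries against 3084, 2407 and 3924 in the 5xFAD libraries, with a log2 difference between genotypes of −0.0029 (SE 0.24). The summed level of 9 oligodendrocyte markers, all with reads in every library, was 262855, 216320.2 and 275124 in the WT libraries against 285901, 210143 and 326034 in the 5xFAD libraries. WT 63 and 5xFAD 65 were the lowest and 5xFAD 79 the highest library in both, and the part of oligodendrocyte RNA in the Cryab values was not tested. In bulk tissue, fewer cells of a type and less RNA per cell cannot be told apart.

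The 3 mitochondrial chaperones had lower mean log2 values in 5xFAD by small amounts, and 0 passed. Hspa9, the mitochondrial HSP70 that pulls proteins through the inner membrane, read 5505, 4991 and 5401 in the WT libraries against 5111, 4999.9 and 5329 in the 5xFAD libraries, with a log2 fold change of −0.041 (SE 0.057, 95% confidence interval from −0.17 to 0.086). Hspe1, the lid of the HSP60 folding chamber, read 1433, 1105 and 1266 in the WT libraries against 1126, 1225 and 1288 in the 5xFAD libraries, with a log2 difference between genotypes of −0.058 (SE 0.10). Hspd1, the HSP60 chamber itself, ranged over 4374 to 5609 with a log2 difference between genotypes of −0.028 (SE 0.094). WT 62 was the highest library of all 3 genes, and the intervals of all 3 excluded a 1.5-fold change.

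The heat-shock factors did not share the order of the libraries seen in the chaperones. Hsf1, the master regulator of heat-shock genes, read 386, 413 and 342 in the WT libraries against 413, 407 and 458 in the 5xFAD libraries, with WT 66 the lowest and 5xFAD 79 the highest. Its log2 fold change was 0.16 (SE 0.094, 95% confidence interval from −0.047 to 0.38) at an unadjusted limma p of 0.114. Hsf2, a related factor with roles in development and in tuning Hsf1, read 508, 549 and 500.3 in the WT libraries against 496, 483 and 478 in the 5xFAD libraries. All 3 5xFAD libraries lay below all 3 WT libraries, yet the gap was narrow, from 496 in 5xFAD 64 to 500.3 in WT 66. The log2 fold change of Hsf2 was −0.10 (SE 0.071, 95% confidence interval from −0.26 to 0.064) at an unadjusted limma p of 0.211, and neither passed (limma adjusted p = 0.9995 for Hsf1 and 0.9995 for Hsf2). Both factors kept their sign in every setting tried.

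In the ER, all 13 chaperones and folding enzymes were highest in WT 62 among WT and in 5xFAD 79 among 5xFAD libraries. Hspa5 (ENSMUSG00000026864.14), which encodes BiP, read 9451, 6071 and 5812 in the WT libraries against 6349.97, 6076 and 9221 in the 5xFAD libraries. The library of WT 62 was 1.59-fold and that of 5xFAD 79 1.48-fold above the other 2 of its genotype, and the remaining 4 lay within 5812 to 6350. The log2 fold change of Hspa5 between genotypes was 0.031 (SE 0.26, 95% confidence interval from −0.61 to 0.67). Without both high libraries it was 0.064 (SE 0.073).

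Sdf2l1, a luminal cofactor that keeps BiP bound to its clients, read 254, 102 and 127 in the WT libraries against 151, 136 and 272 in the 5xFAD libraries. It was 2.22-fold in WT 62 and 1.89-fold in 5xFAD 79 above the others of its genotype, and its log2 fold change between genotypes was 0.25 (SE 0.41, 95% confidence interval from −0.75 to 1.25), the highest of the 40. That value was 0.64 without WT 62 and 0.44 without 5xFAD 65, but −0.015 without WT 63 and −0.052 without 5xFAD 79. Creld2, a disulfide isomerase-like protein secreted under ER stress, read 307, 171 and 150.1 in the WT libraries against 161, 197 and 271 in the 5xFAD libraries, with 1.91-fold in WT 62 and 1.52-fold in 5xFAD 79. Its log2 fold change between genotypes was 0.038 (SE 0.31). Together with Hspa1a, Hspa1b and Hspb1, these 2 genes were the 5 of the 40 that were more than 1.5-fold above the others of the genotype in both libraries.

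The remaining folding genes were also highest in WT 62 and 5xFAD 79 within their genotypes. Among protein disulfide isomerases, Pdia4 ranged over 807 to 1331, Pdia6 over 1435 to 2073 and Pdia3 over 3904 to 4739, with log2 fold changes between genotypes of 0.082 (SE 0.26), 0.061 (SE 0.17) and −0.015 (SE 0.093). Manf, a secreted survival factor that binds BiP, ranged over 707 to 1123 with a log2 difference between genotypes of 0.026 (SE 0.23). Hyou1, the nucleotide exchange factor of BiP, ranged over 2131 to 2700.3 with 0.0061 (SE 0.11). The J proteins of the ER, Dnajb9 and Dnajc3, had log2 fold changes of −0.032 (SE 0.068) and 0.027 (SE 0.11).

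Hsp90b1, the HSP90 of the ER, read 11153, 8719 and 8609.7 in the WT libraries against 9015, 8852 and 10611 in the 5xFAD libraries, with a log2 difference between genotypes of 0.0054 (SE 0.11). Canx, the membrane lectin calnexin, which retains glycoproteins until they fold, read 12162, 10653 and 10928 in the WT libraries against 10904, 10458 and 11490.3 in the 5xFAD libraries, with a log2 fold change of −0.037 (SE 0.065, 95% confidence interval from −0.18 to 0.11). Its soluble partner Calr ranged over 6035 to 7698 with a log2 difference between genotypes of −0.038 (SE 0.11). Of ER-associated degradation, Herpud1, a scaffold of the Hrd1 ubiquitin ligase, read 1261, 916 and 1017 in the WT libraries against 1143, 1026 and 1167 in the 5xFAD libraries, with a log2 difference between genotypes of 0.073 (SE 0.11), or 0.17 (SE 0.10) without WT 62 and 5xFAD 79, and Sel1l, the adaptor of that ligase, had one of −0.0066 (SE 0.065). Of the 13 ER folding genes 9 had higher and 4 lower mean log2 values in 5xFAD, with a median of 0.026, and 0 passed.

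Promoter sequence was examined because many ER chaperones are known to be switched on through a common element. Promoter windows from RefSeq (GRCm38.p6, 250 bases before to 50 after each start) matched 31 of the 40 genes, in 36 windows, and were searched on both strands. The ER stress response element (ERSE) was searched as CCAAT, 9 bases of any kind and CCACG, the parts that NF-Y and ATF6 bind. It was found for 7 of the 31 genes, all of them ER chaperones or folding enzymes: Hspa5, Hsp90b1, Calr, Canx, Pdia6, Dnajc3 and Creld2. The same letters occurred in the windows of 0.137% of all 27025 genes with a window. The shorter ERSE-II, searched as ATTGG, 1 base of any kind and CCACG, was found for Herpud1 and for 0.0444% of all genes. The 2 elements share CCACG, and no match of one overlapped a match of another. A match is a description of the sequence, and the 40 genes include known targets of the response. The promoters of 3 genes are shown to give the element its context, each on the strand of its gene, with the element in capitals. They lie at chr2:34771840-34772089 (plus strand, Hspa5), chr10:86705445-86705694 (minus strand, Hsp90b1, which has 2 elements) and chr15:88819396-88819645 (plus strand, Creld2, with the element on the opposite strand) of GRCm38.p6, and each ends at the base before the start.
Hspa5: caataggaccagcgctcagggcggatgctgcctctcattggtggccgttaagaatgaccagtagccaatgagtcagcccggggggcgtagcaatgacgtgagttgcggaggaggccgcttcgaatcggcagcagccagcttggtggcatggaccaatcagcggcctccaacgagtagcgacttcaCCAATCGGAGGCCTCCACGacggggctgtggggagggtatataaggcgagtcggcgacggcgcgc
Hsp90b1: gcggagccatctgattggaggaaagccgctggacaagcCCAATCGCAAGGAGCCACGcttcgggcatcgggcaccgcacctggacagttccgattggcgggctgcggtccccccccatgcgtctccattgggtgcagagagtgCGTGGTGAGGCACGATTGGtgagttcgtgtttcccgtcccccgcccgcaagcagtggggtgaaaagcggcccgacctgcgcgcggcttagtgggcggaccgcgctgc
Creld2: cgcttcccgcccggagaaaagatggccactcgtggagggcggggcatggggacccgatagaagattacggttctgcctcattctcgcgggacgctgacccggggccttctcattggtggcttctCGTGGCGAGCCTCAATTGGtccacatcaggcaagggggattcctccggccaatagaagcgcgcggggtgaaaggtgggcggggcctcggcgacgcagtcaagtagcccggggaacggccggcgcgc

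The elements of the other genes are given along the motif, with the fixed letters in capitals, since the spacer is what differs between them.
Calr: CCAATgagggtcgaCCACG
Canx: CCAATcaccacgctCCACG
Pdia6: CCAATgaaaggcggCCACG
Dnajc3: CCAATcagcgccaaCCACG
Herpud1 (ERSE-II): ATTGGgCCACG

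The heat-shock element (HSE), searched as GAA, TTC and GAA with 2 bases of any kind between them, to which trimers of heat-shock factor bind, was found for 3 of the 31 genes, Hsph1, Hspd1 and Hspe1, and for 0.662% of all genes with a window. The window of Hspe1 and a window of Hspd1, genes that start next to each other on opposite strands, hold the same overlapping pair of matches. Another window of Hspd1 holds no match. The match of Hsph1 lies just after its starts. The windows of Hspa1a, Hspa1b, Hspa4, Hspa4l, Dnaja1, Dnajb1, Bag3, Hspb1 and Hsf2 do not hold these exact letters. No window was searched for Hspa8, Hsp90aa1, Hsp90ab1, Hspa9, Cryab, Hsf1, Hyou1, Manf and Atf6. The matches are shown along the motif, with the fixed letters in capitals.
Hsph1: GAActTTCcaGAA
Hspe1, on the strand of the gene: GAAccTTCcgGAA
Hspe1, on the opposite strand: GAAggTTCtaGAA
The XBP1 element TGACGTGG was found for 0 of the 31 genes and for 0.714% of all genes. The ATF4 element TGATGNAAN was found for 2 of the 31, Herpud1 and Atf3, and for 4.50% of all genes. Between the lowest and the highest library, the 7 genes with an ERSE spanned 1.16-fold (Canx), 1.28-fold (Calr), 1.30-fold (Hsp90b1), 1.32-fold (Dnajc3), 1.44-fold (Pdia6), 1.63-fold (Hspa5) and 2.05-fold (Creld2). The 3 with an HSE spanned 1.28-fold (Hspd1), 1.30-fold (Hspe1) and 1.52-fold (Hsph1). Genes whose windows hold no exact match to either element included Hspa4 with 1.14-fold, Pdia3 with 1.21-fold, Hspb1 with 2.78-fold and Hspa1b with 7.95-fold. Imperfect elements, and elements outside the windows, were not searched. A relation of element to span was not tested.

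The sensors of the unfolded-protein response did not share the order of the ER chaperones. Atf6, a membrane-bound factor that is cut free under ER stress, read 963, 1017 and 976 in the WT libraries against 1040.03, 1036 and 1027 in the 5xFAD libraries. The 3 5xFAD values were all above the 3 WT values, and the nearest pair was 1017 in WT 63 and 1027 in 5xFAD 79. Its log2 fold change was 0.07 (SE 0.056, 95% confidence interval from −0.054 to 0.19) at an unadjusted limma p of 0.236, and it did not pass over all genes (limma adjusted p = 0.9995). Ern1, the kinase and nuclease that splices Xbp1 mRNA, ranged over 216 to 281 with a log2 difference between genotypes of −0.035 (SE 0.12). Eif2ak3, the kinase PERK, which slows translation, ranged over 495 to 677 with a log2 difference between genotypes of −0.04 (SE 0.11).

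Of the transcription factors downstream, Xbp1 followed the chaperones. It read 1601, 1075 and 1078 in the WT libraries against 1262, 1219 and 1638 in the 5xFAD libraries, and its log2 fold change was 0.15 (SE 0.19, 95% confidence interval from −0.32 to 0.61). Without both WT 62 and 5xFAD 79 the value was 0.20 (SE 0.078), at an unadjusted limma p of 0.034 and an adjusted p of 0.9999. Gene totals do not separate spliced from unspliced Xbp1 mRNA. Atf4, whose protein is made when PERK slows translation, read 1499, 1429.7 and 1537 in the WT libraries against 1597, 1564 and 1516 in the 5xFAD libraries, with a log2 fold change of 0.067 (SE 0.055, 95% confidence interval from −0.057 to 0.19). Ddit3, the factor CHOP of prolonged ER stress, ranged over 206 to 331 with a log2 difference between genotypes of −0.081 (SE 0.17). Atf3, a stress and injury factor, was close to the filter and read 25.1, 24.9 and 27.6 in the WT libraries against 26.6, 19.8 and 14.0 in the 5xFAD libraries. Its log2 fold change of −0.39 (SE 0.30, 95% confidence interval from −1.05 to 0.27) was the lowest of the 40, and it was −0.17 without 5xFAD 79 and −0.60 without 5xFAD 64.

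Across all 16411 tested genes, many of the 40 genes were among those in which both libraries lay farthest above the rest of their genotype. Genes were ordered by the smaller of the 2 log2 differences, and the 500 highest held 22 of the 40 (55% of the list, 4.4% of the 500). The order was made after the pattern was seen and has no test. Hspa1b ranked 4, Hspb1 9, Sdf2l1 12, Creld2 56, Hspa1a 58, Hspa5 75 and Pdia4 76, and Atf3 ranked 15275.

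**Figure D4:**
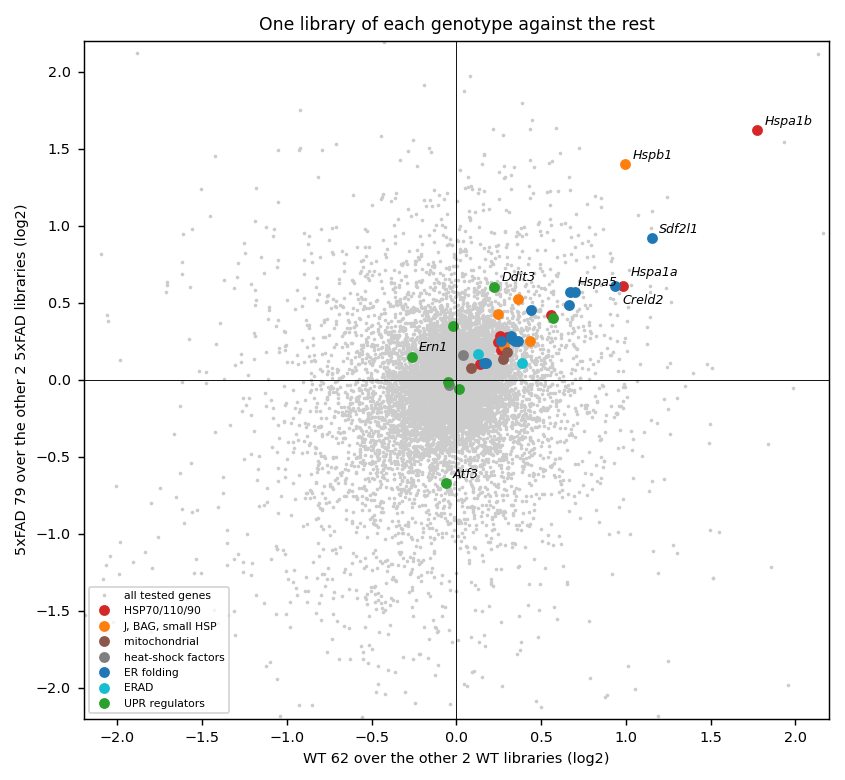
Log2 difference of WT 62 from the mean of the other 2 WT libraries (horizontal) against that of 5xFAD 79 from the other 2 5xFAD libraries (vertical), for all tested genes (grey) and the 40 genes (coloured by functional group), with 75 tested genes outside the axes. Hspa1b, Hspb1 and Sdf2l1 lie far out at the upper right, and Ern1 and Atf3 lie outside that quadrant.

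Hspa1a and Hspa5 were then compared with each of the other 39 genes over the 6 libraries, 78 relations in all. Hspa1a and Hspa1b had Pearson r = 0.98 (permutation p = 0.00694, adjusted p = 0.108) and Spearman rho = 0.94 (permutation p = 0.0167, adjusted p = 0.144), and r = 0.93 without the 2 libraries farthest from the median of Hspa1a. The pair shares sequence, as given above. Hspa1a and Dnajb1 had Pearson r = 0.94 (permutation p = 0.00556, adjusted p = 0.108) and Spearman rho = 0.94 (permutation p = 0.0167, adjusted p = 0.144), and r = 0.74 without those libraries. With Hspa1a, r was above 0 for 35 of 39 genes, 8 had an unadjusted exact permutation p of r under 0.05, and 0 passed after adjustment. The values of Hspa5 fell into 2 separate sets, 9221 and 9451 against 5812 to 6350, so no pooled correlation is given for it and the relation cannot be tested within sets of that size. As a description, Hspa5, Hsp90b1 and Manf placed the 6 libraries in an identical order, from WT 62 and 5xFAD 79 down to WT 66.

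Levels between genes were compared as mean normalized counts per kilobase of the longest GENCODE M21 transcript. Hspa8 was the highest with 14182 per kilobase, followed by Hsp90ab1 with 12245 and Hsp90aa1 with 11469, and the ranges of these 3 over the libraries overlapped. Calr came next with 3006 per kilobase. The inducible Hspa1a stood at 141, so the constitutive Hspa8 was 100.5-fold above it, or 385-fold with median transcript lengths, and Atf3 was the lowest with 11.6. With median transcript lengths Hsp90aa1 came before Hspa8, and 7 of the 10 highest genes stayed among the 10 highest.

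No other chaperone gene listed here passed between the genotypes. Of 32 tested cytosolic chaperones and cochaperones outside the 40, 12 had higher and 20 lower mean log2 values in 5xFAD (median −0.0093) and 0 passed. Dnaja2, a J protein, read 3205, 3161 and 3104 in the WT libraries against 3016, 2955 and 3015 in the 5xFAD libraries, and the 5xFAD libraries all lay below the WT libraries with a log2 difference between genotypes of −0.076 (SE 0.048). Hspa14 and Dnajb5 had −0.14 (SE 0.089) and 0.13 (SE 0.083). Of 14 subunits of the CCT chaperonin and prefoldin, which fold actin and tubulin, 5 were higher and 9 lower (median −0.011), with Pfdn2 at −0.085 (SE 0.052) and Tcp1 at 0.0052 (SE 0.066). Of 12 genes of mitochondrial protein quality control 4 were higher and 8 lower (median −0.019), with the peptidase Oma1 at −0.25 (SE 0.15) and Spg7 at 0.094 (SE 0.065). In these 3 lists the limma test called 0 genes, and an unadjusted p under 0.05 was reached by 0.

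Of 39 further genes of ER folding and degradation 20 had higher and 19 lower values (median 0.0037), and 0 passed. Selenos, a selenoprotein of the degradation channel, read 372, 347 and 350.2 in the WT libraries against 404, 405 and 375 in the 5xFAD libraries, with 5xFAD above WT in all libraries and a log2 fold change of 0.15 (SE 0.079, 95% confidence interval from −0.032 to 0.32). Ppib, an ER proline isomerase, and Syvn1, the Hrd1 ligase, had log2 fold changes of 0.091 (SE 0.052) and 0.14 (SE 0.084). Of 26 genes of the integrated stress response, the branch that runs through Atf4, 18 had higher and 8 lower values (median 0.038), with 0 past the threshold in the limma test and 1 at an unadjusted p under 0.05, where 2.32% of all tested genes had one. That gene was Slc7a5, an amino acid transporter, which read 849, 705 and 777 in the WT libraries against 948, 965 and 826 in the 5xFAD libraries, with a log2 fold change of 0.23 (SE 0.088, 95% confidence interval from 0.037 to 0.43). Ppp1r15b, which restarts translation, had 0.11 (SE 0.056). Of 4 tested regulators of heat-shock factors 1 was higher and 3 lower (median −0.023). The counts for all these lists stand beside 50.2% of all tested genes with a higher mean in 5xFAD.

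The order of the libraries seen in the chaperones was not common to all stress genes. WT 62 and 5xFAD 79 were both highest in their genotype for 16 of 32 other cytosolic chaperones, 9 of 14 CCT and prefoldin genes and 13 of 39 other ER genes, beside 13.7% of all tested genes. The counts were 4 of 20 for immediate-early genes, 1 of 4 for regulators of heat-shock factors, 1 of 12 for mitochondrial protein quality control and 0 of 26 for the integrated stress response. The summed level of the immediate-early genes, which neuronal activity and handling induce, was 4456, 4659 and 4491 in the WT libraries against 4483, 5023 and 4859.8 in the 5xFAD libraries, lowest in WT 62. Of the 20 tested immediate-early genes 13 had higher and 7 lower values in 5xFAD (median 0.14) and 0 passed in the limma test, with Jund at 0.19 (SE 0.074) and Klf6 at 0.17 (SE 0.072) the 2 at an unadjusted p under 0.05. Of all tested genes, 50.2% had a higher mean in 5xFAD and 2.32% an unadjusted p under 0.05.

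The make-up of the punches also varied between libraries. The summed level of 7 markers of cerebellar granule neurons, a cell type of the overlying cerebellum, was 2781, 8487 and 3999 in the WT libraries against 7636, 10606 and 4843 in the 5xFAD libraries. WT 62, WT 66 and 5xFAD 79 were the 3 lowest in this sum and the 3 highest in Hspa1a and Hspa1b. WT 66 was, however, the lowest of the 6 libraries in 5 of the 13 ER chaperones and folding enzymes, including Hspa5 and Hsp90b1. The mean normalized count was higher in 5xFAD for 7 of 7 granule neuron and 9 of 9 oligodendrocyte markers. It was also higher for 7 of 8 noradrenergic and 3 of 9 general neuronal markers. For choroid plexus 0 of 6 and for blood cells 0 of 5 were higher. The sums of granule neuron and of oligodendrocyte markers nevertheless overlapped between the genotypes. For granule neurons WT 63 was above 5xFAD 64 and 5xFAD 79, and for oligodendrocytes 5xFAD 65 was the lowest library. By mean log2 value, a different measure, 50.2% of all tested genes were higher in 5xFAD. The summed level of 8 noradrenergic markers was 10561, 11892 and 6325 in the WT libraries against 9162, 13349 and 9972 in the 5xFAD libraries, lowest in WT 66. That of 9 general neuronal markers was 169782, 147322 and 162706 in the WT libraries against 150186, 136407 and 159215 in the 5xFAD libraries. This neuronal sum was highest in WT 62, and 5xFAD 79 was the highest 5xFAD library, as in the chaperones. WT 66 lay above 5xFAD 79 in it, and no other marker sum had WT 62 and 5xFAD 79 both highest in their genotype. The sum of 8 astrocyte markers stayed within 78927 to 89204 and that of 8 microglial markers within 3537 to 4093. The sum of 6 choroid plexus markers was 1334 in WT 66 and 105 to 154 in the other 5 libraries. No marker of these lists was at 0 in any library, and the part of tissue make-up in the chaperone values was not tested.

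**Figure D5:**
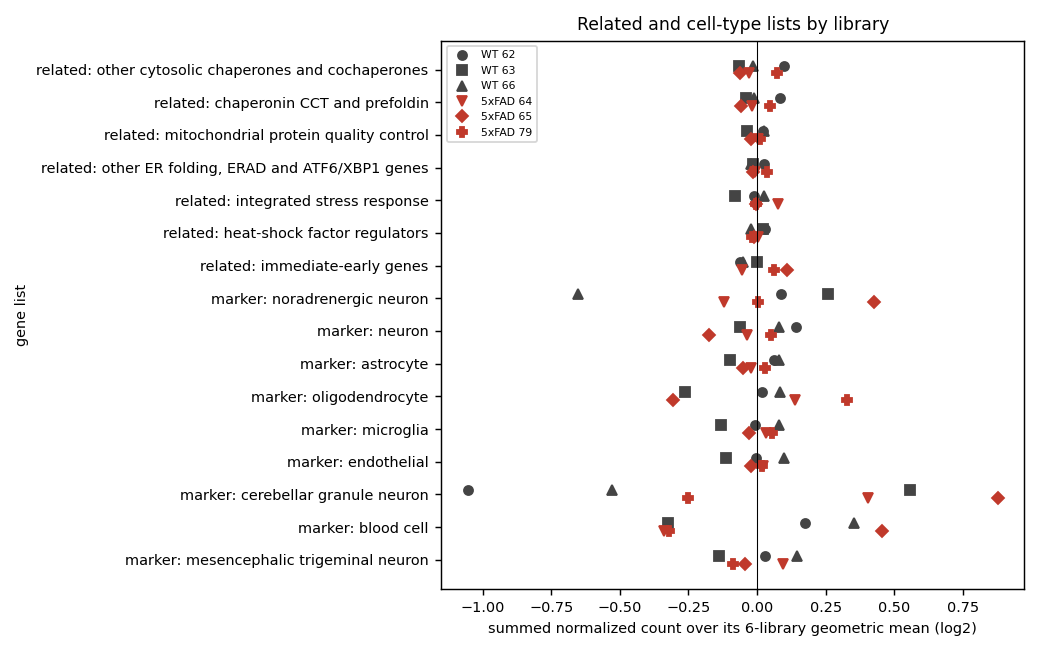
Summed normalized count of each related gene list and marker list in each library over its geometric mean of the 6 libraries, on a log2 scale (grey for WT, red for 5xFAD), without the choroid plexus list. The cytosolic chaperone list is highest in WT 62 and 5xFAD 79, and the cerebellar granule list is lowest in WT 62.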

How the data were processed

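Bulk RNA sequencing compared 3 WT with 3 5xFAD libraries, grouped by title. Per the labels' protocols, RNA was extracted from frozen punches with TRIzol and made into poly-A TruSeq libraries. STAR, RSEM, DESeq2 and the build mm39 are named in the submitters' processing notes, while the strand setting and annotation release are not given. The deposited table is named as TPM, but the authors' deposited signal is each gene's read count over the size factor of its library (0.865 to 1.16). All values (100%) were whole multiples of 1 step (tolerance 0.001). The authors also deposited a log2 fold change with its error, a test score and p-values, as WT over 5xFAD, and the sign is turned here. Symbols were matched by identifier for 91.5% of genes.

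The test was limma 3.58.1 in R 4.3.3, on log2(normalized count + 1) of genes with at least 10 in 3 libraries, with variance trend and robust moderation, without a batch term since the labels give none. Alternatives included other pseudocounts, filters and scalings, edgeR 4.0.16 and DESeq2 1.42.0 on recovered reads, and leaving out libraries. In 5 simulated sets of 16411 genes with 200 changed, limma recovered 52.0% of 1.5-fold and 74.4% of 2-fold changes, with 16.2 false calls per set. The genes and lists were chosen with earlier results of these data known. By rule, values in every library were given for genes whose groups do not overlap, for the 10 with the smallest p and the 6 with the highest mean, and up to 5 genes per related list could be named, 3 by smallest p and 2 by highest mean. Hspa1a, Hspa1b, Hspa5, Hspb1, Sdf2l1, Creld2 and Cryab were given in every library, and Dbh and Th named, after their values were seen. Correlations used exact permutation in Python 3.11.15.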

Additional observations from a re-analysis of the deposited data

How the results depend on the processing

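No member passed over all genes under any of the 16 alternatives run. The sign of the log2 fold change turned for 16 genes without WT 62 and for 8 with quantile normalization. The median log2 fold change of the members ran from −0.096 to 0.075 when each library was left out. The number of genes called among all tested was 1, and it was 3 with DESeq2 on recovered reads, 0 without trend or robust moderation, and 0 to 2 when each library was left out. It was 0 without both WT 62 and 5xFAD 79. Related lists had 0 calls and the correlations 0 under the alternatives run, and 7 of the 10 highest genes per kilobase were shared between length measures. The cause of these changes was not tested. No paired analysis was possible because the libraries of the 2 genotypes share no number. Depth limits Atf3 most, at 14.0 to 27.6 normalized counts, while the spread between libraries limits Hspa1a and Hspa1b.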
